A study of Mus musculus with 16 samples.

Results

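Collagen chains, laminin chains and 6 further matrix genes (Bgn, Dcn, Fn1, Sparc, Lox and Postn) were followed in 8 mouse embryonic stem cell (ESC) lines with and without leukaemia inhibitory factor (LIF), the cytokine that keeps these cells self-renewing. Members were taken by symbol alone, as every Col or Lam chain symbol plus the 6 named genes, from probe sets with a single gene symbol. This gave 58 genes of 30102 on the array, namely 42 collagen chains, 10 laminin chains and the 6 others, each measured by a single probe set. Of the 58, 54 passed the filter on low signal, which asked that at least 3 of the 16 arrays give a value over their own 40th percentile. Col8a1, Col10a1, Lama2 and Postn did not pass it. Dcn and Lox passed it only through arrays of the retaining lines without LIF, the group in which they were highest, so their calls support nothing and counts are given without them as well. Col4a3 passed on 4 arrays, all without LIF. A further 2 probe sets with matching symbols carried several symbols and were left out. The set was chosen with earlier results of these data known, so its shares of called genes are descriptive.

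All arrays measured male ESCs of the 129SV strain. MBD3 is part of NuRD, a complex that remodels nucleosomes and removes acetyl groups from histones. Of the 8 lines, 3 lack a coiled coil of MBD3, through knockout without an MBD3 construct or through a deletion. All 3 are knockouts for Mbd3 and carry a stably introduced empty vector, MBD3a with the coiled coil removed (called coiled-coil-deleted here), or MBD3a with that coil and the methyl-CpG-binding domain removed (doubly deleted). The other 5 retain a coiled coil: knockouts that express MBD3a with the methyl-CpG-binding domain removed (MBD-deleted), MBD3b, MBD3c or MBD3a, and the parental wild type, EBRTcH3. Each line was grown for 12 days without LIF, and in conventional ESC medium with LIF, and each line and condition had 1 array. The series asks what the coiled coil of MBD3 contributes to lineage commitment. The labels name no second culture of a line, so the lines served as replicates and p-values measure only the spread between these lines. They do not say whether a transgenic line is a clone.

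Basement membranes are thin sheets under epithelia, built from a collagen IV network and a laminin network, and parietal endoderm, an extraembryonic tissue, is known for secreting them. A laminin is a trimer of an alpha, a beta and a gamma chain, and collagen IV is a trimer of alpha chains whose most widespread form joins the products of Col4a1 and Col4a2. Fibrillar collagens (types I, II, III, V, XI, XXIV and XXVII) instead form the banded fibres of connective tissue, on which small leucine-rich proteoglycans such as biglycan (Bgn) and decorin (Dcn) sit. In an ESC culture, matrix genes of the basement membrane are known to be active early, whereas fibrillar collagens belong mainly to mesenchymal derivatives.

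Col4a1, Col4a2, Bgn and Lamb1, with Sparc, had the largest rises after LIF withdrawal in lines whose MBD3 keeps a coiled coil. The promoter windows of these genes other than Sparc are shown, as the DNA in front of the genes that moved most and because Col4a1 and Col4a2 are read from a shared stretch. Windows of 300 bases, 250 before and 50 after the transcription start, came from RefSeq (GRCm38.p6). Capitals mark GC boxes (GGGCGG) and CCAAT boxes (CCAAT) on either strand. The windows are chr8:11312777-11313076 on the minus strand for Col4a1, chr8:11312555-11312854 on the plus strand for Col4a2, chrX:73483351-73483650 on the plus strand for Bgn and chr12:31265043-31265342 on the plus strand for Lamb1.
Col4a1: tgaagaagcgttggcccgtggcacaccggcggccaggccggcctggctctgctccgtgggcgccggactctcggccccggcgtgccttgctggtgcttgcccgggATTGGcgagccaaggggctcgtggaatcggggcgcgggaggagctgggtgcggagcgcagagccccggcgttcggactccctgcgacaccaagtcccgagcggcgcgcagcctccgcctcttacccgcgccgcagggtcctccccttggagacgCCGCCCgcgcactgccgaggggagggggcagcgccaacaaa
Col4a2: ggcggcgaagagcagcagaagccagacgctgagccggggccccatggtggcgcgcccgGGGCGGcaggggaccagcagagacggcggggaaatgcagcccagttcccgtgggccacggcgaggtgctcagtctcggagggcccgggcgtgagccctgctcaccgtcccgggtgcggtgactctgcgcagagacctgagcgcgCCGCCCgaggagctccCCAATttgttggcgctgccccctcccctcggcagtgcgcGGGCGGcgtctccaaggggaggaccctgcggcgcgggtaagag
Bgn: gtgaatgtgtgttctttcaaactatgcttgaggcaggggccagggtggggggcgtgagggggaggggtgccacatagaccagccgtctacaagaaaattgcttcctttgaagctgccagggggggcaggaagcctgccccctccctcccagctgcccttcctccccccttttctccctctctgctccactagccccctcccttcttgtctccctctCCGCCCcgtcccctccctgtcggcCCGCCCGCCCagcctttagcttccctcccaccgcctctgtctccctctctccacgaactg
Lamb1: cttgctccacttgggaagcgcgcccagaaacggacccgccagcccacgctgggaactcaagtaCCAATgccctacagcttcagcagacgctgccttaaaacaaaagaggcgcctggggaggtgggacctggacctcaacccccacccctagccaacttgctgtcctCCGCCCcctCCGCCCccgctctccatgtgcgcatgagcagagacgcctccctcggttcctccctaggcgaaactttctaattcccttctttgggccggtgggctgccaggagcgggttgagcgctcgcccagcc

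The starts of Col4a1 and Col4a2 lay 21 bases apart on opposite strands, so that the 2 windows shared 78 bases, and the GC box in the Col4a1 window is the same stretch as the last GC box of the Col4a2 window, read from the other strand. The Bgn window held 3 GC box matches, 2 of them overlapping in the run of 10 capitals, and no CCAAT box. Over the 41 members with a window (46 windows, since some genes have several starts), a GC box was found in 54.3% of windows, against 35.7% of all 32851 windows of this length. A CCAAT box was found in 28.3% of the members' windows and 37.4% of all windows, TATAAA in 13% and 13.6%, and the AP-1 motif TGANTCA in 2.17% and 7.81%. These are counts of letters on either strand, and none of them was tested.

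Signals are log2 values after robust multi-array averaging (RMA). They ran from 0.98 to 14.21, with array medians of 4.72 to 4.85 and correlations between arrays of 0.971 to 0.995. Mbd3 was lowest in the empty vector line, at 7.45 without LIF and 7.00 with LIF, against 8.45 to 9.59 in the other lines. The labels do not say whether its probe set lies in the deleted part of the gene. Pou5f1, which defines pluripotent cells, lay between 11.93 and 12.56 on all arrays. The number of arrays, 1 for each line and condition, limits the precision, and for the same gene in bulk RNA a change in the number of cells of a type and in RNA per cell cannot be told apart. Array titles are numbered in 2 runs: the first holds EBRTcH3, MBD3a, MBD3b, MBD3c and the empty vector, and the second the MBD-deleted, coiled-coil-deleted and doubly deleted lines. Values within each run are given beside several of the results. The lacking line of the first run is thus the empty vector line, a knockout without any MBD3 construct.

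Where MBD3 lacked a coiled coil, 1 of the 54 tested members rose after LIF withdrawal (Lamb1) and 1 fell (Lama1), in a limma fit that held the line as a block (adjusted p under 0.05). Of all 22872 tested genes 1.71% were called higher and 1.22% lower in those lines, and 7 members had an unadjusted p under 0.05. Where MBD3 retained it, 20 members rose and 2 fell. That is 37% of tested members higher, where 21.3% of all genes were called higher, and 3.7% lower, where 14.5% of all genes were. The median member changed by 0.15 on the log2 scale in the retaining lines and the median gene by 0.04. Without Dcn and Lox, 18 of 52 members rose there (34.6%). The difference between the classes in the response itself was called for 12 members. All 12 had a lower response in the lacking lines (22.2% of tested members, against 7.9% of all genes), and 0 had a higher one (4.17% of all genes; 20 members had an unadjusted p under 0.05 in either direction). The count of 12 was 11 of 52 without Dcn and Lox (21.2%), 8 with a LIF effect for each run of titles, and 7 without the doubly deleted line. Dcn is included in the 8 and in the 7.

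**Figure D1:**
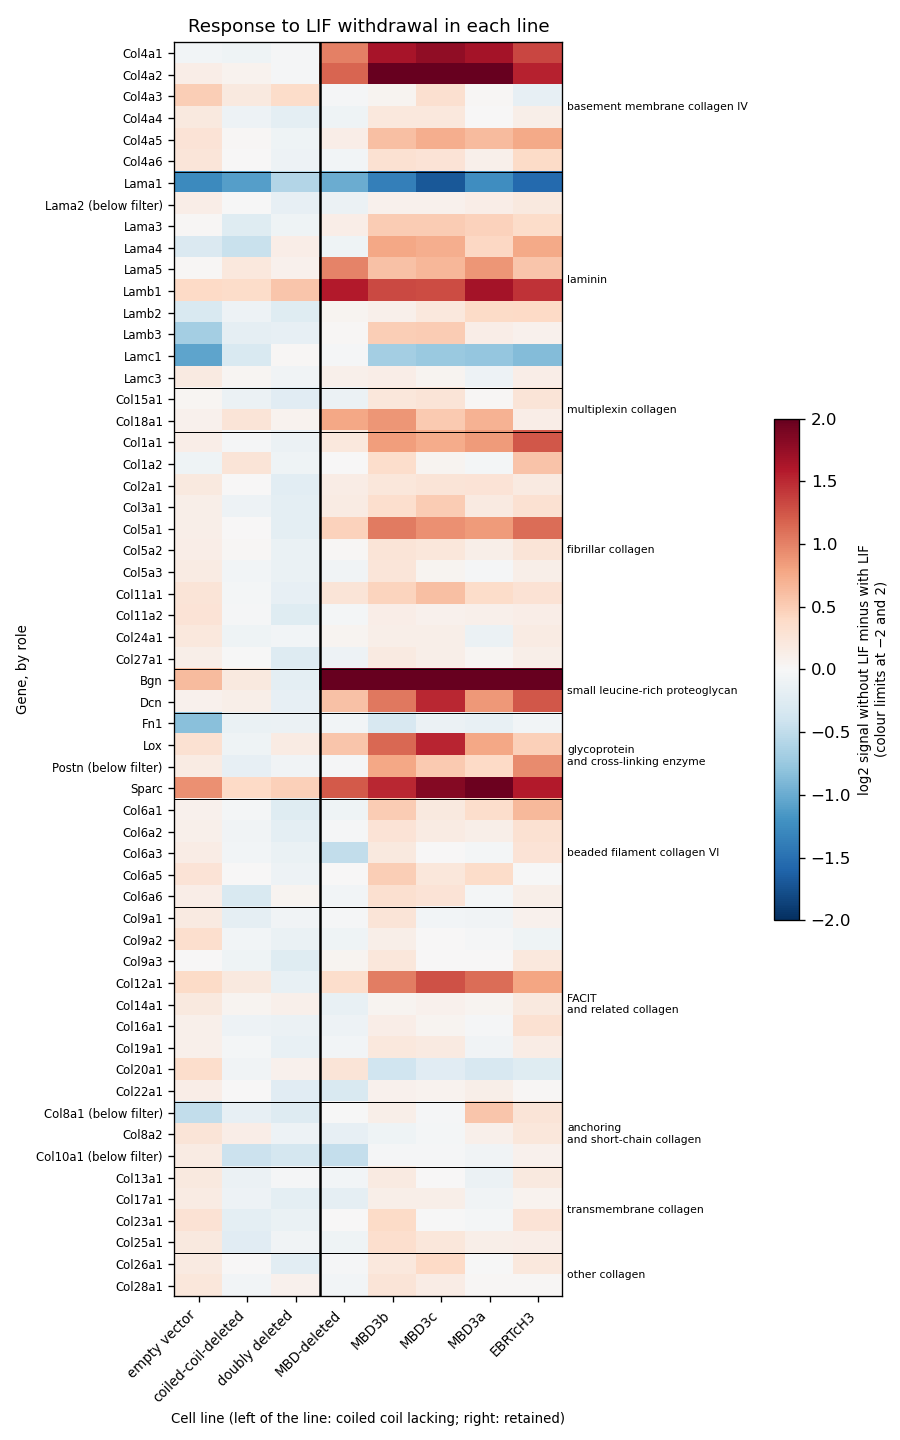
Response to LIF withdrawal (log2 signal without LIF minus with LIF) of the 58 genes, in rows by role, in each of 8 lines, with the 3 lines that lack a coiled coil left of the vertical line and the 5 that retain it right. Colour limits are at -2 and 2, so Bgn, whose responses were 3.01 to 4.02 in the retaining lines, is beyond the scale there; red rows are few on the left, and Lama1 is blue in all 8 lines.

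Of the 17 tested basement membrane chains (collagen IV, laminins and the multiplexins Col15a1 and Col18a1), 9 rose (52.9%, against 21.3% of all tested genes) and 2 fell (11.8%, against 14.5% of all genes) in the retaining lines. A lower response in the lacking lines was called for 6 of the 17 (35.3%, against 7.9% of all genes). Among these genes the 2 chains of the common collagen IV trimer moved most. For Col4a1 the signal without LIF was 7.05, 7.33 and 7.28 in the empty vector, coiled-coil-deleted and doubly deleted lines, against 7.52, 8.00, 8.16, 8.10 and 7.66 in the MBD-deleted, MBD3b, MBD3c, MBD3a and EBRTcH3 lines. With LIF it was 7.10, 7.41 and 7.31 in the lacking lines and 6.52, 6.35, 6.39, 6.43 and 6.33 in the retaining lines, in the same orders, which hold below. The lacking lines thus stayed within a narrow band between the levels of the retaining lines, below all of them without LIF and above all of them with LIF. After LIF withdrawal Col4a1 differed by -0.05 in the lacking lines (adjusted p = 0.916, higher in 0 of 3 lines). In the retaining lines it rose 2.8-fold (log2 difference 1.48 ± 0.11 SE, adjusted p = 2.25e-06, higher in 5 of 5 lines). The responses differed by -1.54 ± 0.18 between the classes (adjusted p = 0.000436), by -1.66 among lines of the first title run and by -1.05 among those of the second.

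Col4a2 followed the same course. Its signal without LIF was 6.98, 7.26 and 7.15 in the lacking lines, against 7.64, 8.33, 8.44, 8.51 and 7.84 in the retaining lines. With LIF present the values were 6.85, 7.19 and 7.17 in the lacking lines, against 6.47, 6.32, 6.29, 6.42 and 6.30 in the retaining lines. The classes did not overlap in either condition, and the order of the classes was opposite in the 2 conditions. The lacking lines differed by 0.06 between conditions (adjusted p = 0.923), while Col4a2 rose 3.46-fold in the retaining lines (1.79 ± 0.13, adjusted p = 2.49e-06). The difference of the responses was -1.73 ± 0.22 (adjusted p = 0.00074), by run of titles -1.82 in the first and -1.15 in the second.

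The 4 other collagen IV chains, found in the more restricted trimers of kidney, lung and smooth muscle basement membranes, moved less. Col4a5 rose by 0.57 ± 0.10 in the retaining lines (adjusted p = 0.000989), with a response of 0.14 in the MBD-deleted line against 0.60 to 0.75 in the other 4. Its response did not differ between the classes past the threshold (-0.50, adjusted p = 0.0708). Col4a3, Col4a4 and Col4a6 had retaining-line differences of 0.04, 0.09 and 0.20 and passed in no comparison. Col4a3 lay near the filter, between 3.89 and 4.58 on all arrays. Members that are neighbours in the genome formed 7 pairs, and Col4a1 with Col4a2 was the pair in which both genes rose in the retaining lines. In the pairs Col3a1 with Col5a2, Col6a1 with Col6a2 and Col4a5 with Col4a6 the gene named before passed and its neighbour did not.

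**Figure D2:**
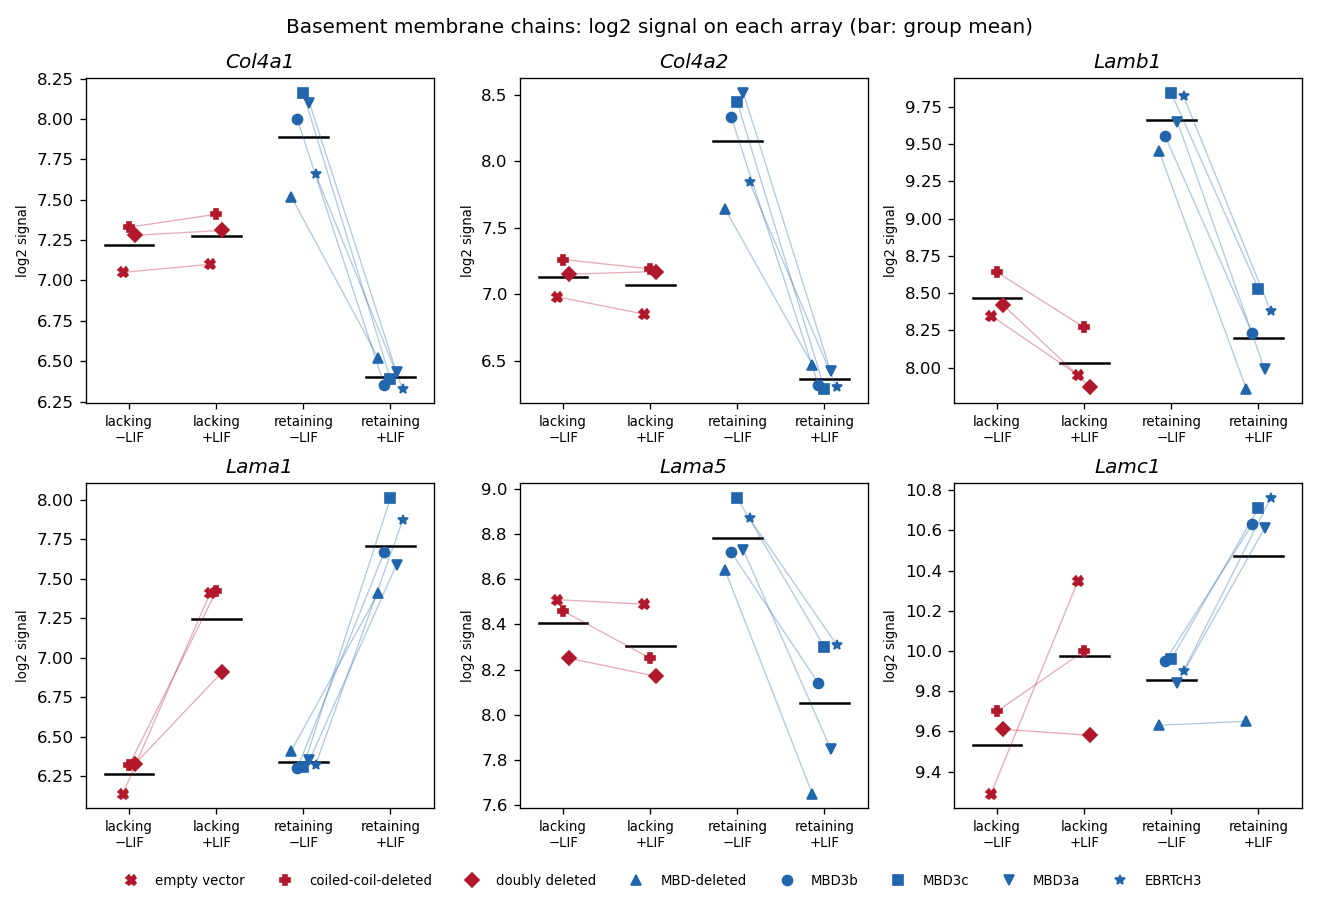
Log2 signal of 6 basement membrane chains on each array, for the lines that lack a coiled coil (red) and those that retain it (blue), without and with LIF; a thin line joins the 2 arrays of a cell line and a bar marks the group mean. Axes do not start at 0 and differ between panels. Col4a1 and Col4a2 sit between 6.85 and 7.41 in the lacking lines in both conditions, and Lama1 is lower without LIF in all 8 lines.

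Laminin chains moved in both directions. Lamb1, the beta chain of the trimers laminin-111 and laminin-511, had a signal without LIF of 8.35, 8.64 and 8.42 in the lacking lines, against 9.45, 9.55, 9.84, 9.65 and 9.82 in the retaining lines. With LIF it had 7.95, 8.27 and 7.87 in the lacking lines, against 7.86, 8.23, 8.53, 7.99 and 8.38 in the retaining lines. Every line was higher without LIF, and the classes were apart without LIF and overlapped with it. Lamb1 rose by 0.44 ± 0.10 in the lacking lines (adjusted p = 0.0476) and by 1.46 ± 0.08 in the retaining lines (adjusted p = 3.13e-07), a difference of -1.02 ± 0.13 (adjusted p = 0.000824), which was -1.03 within the first run and -1.13 within the second. The call in the lacking lines was kept in 1 of the 8 fits that left out a line, the fit without the MBD-deleted line, and was lost without the line as a block (adjusted p = 0.191).

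Lama1 encodes the alpha chain of laminin-111, the laminin of the earliest embryonic basement membranes, and it fell in both classes. Without LIF its signal was 6.14, 6.32 and 6.33 in the lacking lines and 6.41, 6.30, 6.31, 6.35 and 6.32 in the retaining lines. With LIF it was 7.41, 7.42 and 6.91 in the lacking lines and 7.41, 7.67, 8.01, 7.59 and 7.87 in the retaining lines. In each class the 2 conditions did not overlap, and in each condition the classes overlapped. Lama1 fell by 0.98 on the log2 scale in the lacking lines (SE 0.15, adjusted p = 0.00876) and fell by 1.37 in the retaining lines (SE 0.12, adjusted p = 8.28e-06). The call in the lacking lines was lost without the empty vector or the coiled-coil-deleted line (largest adjusted p 0.0832), and the responses differed by 0.39 (adjusted p = 0.236).

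Lamc1, the gamma chain shared by most laminins, had a signal without LIF of 9.29, 9.70 and 9.61 in the lacking lines and 9.63, 9.95, 9.96, 9.84 and 9.90 in the retaining lines. With LIF it had 10.35, 10.00 and 9.58 in the lacking lines and 9.65, 10.63, 10.71, 10.61 and 10.76 in the retaining lines. It fell by 0.62 in the retaining lines (SE 0.15, adjusted p = 0.00906), though the MBD-deleted line changed by -0.02. Lamc1 was called neither in the lacking lines nor for the difference of the responses. The empty vector line, the lacking line of the first run of titles, went from 10.35 with LIF to 9.29 without it. With LIF the levels lay between 10.35 and 10.76 in the 5 lines of the first run and between 9.58 and 10.00 in the 3 lines of the second. Without LIF they were 9.29 to 9.96 and 9.61 to 9.70. The difference in level between the runs was not itself tested. Within the first run the change in the retaining lines was -0.76 (adjusted p = 0.000245).

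Lama5, the alpha chain that pairs with Lamb1 and Lamc1 products in laminin-511, a substrate on which ESCs are commonly grown, had a signal without LIF of 8.51, 8.46 and 8.25 in the lacking lines, against 8.64, 8.72, 8.96, 8.73 and 8.87 in the retaining lines. When LIF was kept it was 8.49, 8.25 and 8.17 in the lacking lines, against 7.65, 8.14, 8.30, 7.85 and 8.31 in the retaining lines. It differed by 0.10 in the lacking lines (adjusted p = 0.749) and rose by 0.73 ± 0.09 in the retaining lines (adjusted p = 6.19e-05). The difference, -0.63 ± 0.14 (adjusted p = 0.0142), was not called without the doubly deleted line (adjusted p = 0.0572), and it was -0.65 within the first run and -0.85 within the second. So Lama1 fell and Lama5 rose in the same retaining lines.

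Smaller rises in the retaining lines were called for Lama3 (0.39), Lama4 (0.52) and Lamb2 (0.23, adjusted p = 0.0435, a call kept in 2 of 8 fits that left out a line). Lama3 and Lamb3 encode chains of the laminin of epithelial anchoring structures. Lama4 is a chain of vessel and muscle basement membranes. Within the second run of titles, where the MBD-deleted line is the only retaining line, the change of Lama4 was -0.09. The responses of Lama3 (-0.49, adjusted p = 0.0375) and Lamb2 (-0.45, adjusted p = 0.0491) differed between the classes. Neither was called with a LIF effect for each run (adjusted p = 0.101 for Lama3 and 0.109 for Lamb2). The call for Lama3 was kept without the empty vector or the MBD-deleted line and lost without any of the other 6. The call for Lamb2 was kept only without the MBD-deleted line. Lamb3 did not pass in the retaining lines (0.24, adjusted p = 0.0995), and neither did Lamc3 (0.06). Lama2, the alpha chain of muscle laminin, was below the filter on all arrays.

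Col18a1, the multiplexin whose C-terminal fragment is endostatin, had a signal without LIF of 9.30, 9.46 and 9.35 in the lacking lines and 9.48, 9.35, 9.25, 9.17 and 9.20 in the retaining lines. With LIF it had 9.22, 9.20 and 9.28 in the lacking lines, against 8.71, 8.47, 8.72, 8.47 and 9.06 in the retaining lines. It rose by 0.60 ± 0.10 in the retaining lines (adjusted p = 0.000883). The change in the lacking lines was 0.14 and the difference of the responses -0.47, and neither passed. The classes overlapped without LIF and were apart with LIF.

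Of 11 tested fibrillar chains, 5 rose in the retaining lines (Col1a1, Col2a1, Col3a1, Col5a1 and Col11a1; 45.5%, against 21.3% of all genes) and 0 fell (14.5% of all genes). None of the 5 reached 2-fold. The median change was 0.19 for the 11 fibrillar chains, and fibrillar and basement membrane chains were not tested against each other. In the lacking lines the 11 fibrillar chains changed by -0.06 to 0.03, and 0 passed or had an unadjusted p under 0.05.

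Col5a1, a chain of the collagen that nucleates fibrils, had the largest change among them. Without LIF its signal was 6.67, 6.81 and 6.71 in the lacking lines, against 6.92, 7.30, 7.22, 7.31 and 7.53 in the retaining lines. With LIF it was 6.55, 6.80 and 6.91 in the lacking lines, against 6.46, 6.26, 6.31, 6.46 and 6.42 in the retaining lines. As with Col4a1 and Col4a2, the lacking lines were below the retaining lines without LIF and above them with it. Col5a1 rose 1.83-fold in the retaining lines (0.87 ± 0.10, adjusted p = 5.3e-05), and the difference of the responses was -0.90 ± 0.16 (adjusted p = 0.00542), by run of titles -0.86 in the first and -0.56 in the second.

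Col1a1, a chain of type I collagen, had a signal without LIF of 6.72, 6.83 and 6.77 in the lacking lines, against 6.90, 7.40, 7.35, 7.47 and 7.81 in the retaining lines. With LIF it had 6.58, 6.85 and 6.89 in the lacking lines and 6.69, 6.57, 6.61, 6.62 and 6.57 in the retaining lines. The retaining lines rose by 0.77 ± 0.12 (adjusted p = 0.000487), and the responses differed by -0.77 (adjusted p = 0.0285), a call lost in 5 of 8 fits that left out a line (MBD3a, MBD3b, MBD3c, coiled-coil-deleted or doubly deleted) and with a LIF effect for each run (adjusted p = 0.0848). Col1a2, whose product joins that of Col1a1 in the type I trimer, changed by 0.19 (adjusted p = 0.183). Col5a2, the partner of Col5a1, changed by 0.18 (adjusted p = 0.0893). In both trimers, then, 1 chain passed and its partner did not.

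The other fibrillar rises were 0.39 for Col11a1 and 0.22 for Col2a1, both chains known from cartilage, and 0.30 for Col3a1, a chain of elastic tissues. The call for Col2a1 was kept in 2 of 8 fits that left out a line, those without the empty vector or the doubly deleted line, and that for Col3a1 was lost without the MBD3c line. None of these 3 differed in response between the classes past the threshold. The remaining fibrillar chains, Col5a3, Col11a2, Col24a1 and Col27a1, changed by 0.06 to 0.08.

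Bgn, the small leucine-rich proteoglycan biglycan, had the largest response of all 58 genes. Its signal without LIF was 6.17, 6.54 and 6.11 in the lacking lines, against 7.81, 7.84, 8.11, 8.32 and 8.90 in the retaining lines. In the presence of LIF it was 5.53, 6.35 and 6.31 in the lacking lines, against 4.80, 4.76, 4.74, 4.76 and 4.88 in the retaining lines. All 3 lacking lines lay between the retaining lines' 2 levels, whether LIF was present or not. Bgn differed by 0.21 in the lacking lines (adjusted p = 0.7) and rose 10.6-fold in the retaining lines (3.41 ± 0.15, adjusted p = 7.69e-08). The responses differed by -3.20 ± 0.25 (adjusted p = 6.86e-05), by -2.87 among lines of the first title run and -3.01 among those of the second.

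Dcn, the related proteoglycan decorin, had a signal without LIF of 3.66, 3.84 and 3.55 in the lacking lines, against 4.07, 4.13, 4.71, 4.51 and 4.53 in the retaining lines. With LIF it had 3.57, 3.73 and 3.71 in the lacking lines and 3.48, 3.08, 3.20, 3.65 and 3.29 in the retaining lines. It was above the filter on 3 arrays, so most of these values lie at low signal. Its change was 1.05 ± 0.12 in the retaining lines and its responses differed by -1.04 ± 0.19. In the limma fit without a filter on signal, which does not depend on how Dcn was admitted, the adjusted p was 6.43e-05 for the change and 0.00848 for the difference.

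Sparc (osteonectin), a collagen-binding glycoprotein abundant in parietal endoderm, had a signal without LIF of 10.19, 10.45 and 10.23 in the lacking lines, against 11.01, 11.47, 11.77, 11.81 and 11.73 in the retaining lines. With LIF it had 9.28, 10.05 and 9.75 in the lacking lines and 9.79, 9.97, 9.94, 9.85 and 10.15 in the retaining lines. All 8 lines were higher without LIF. The lacking lines differed by 0.60 ± 0.15 without passing (adjusted p = 0.0584), and the rise was 1.62 ± 0.11 in the retaining lines (adjusted p = 1.89e-06). The responses differed by -1.02 ± 0.19 (adjusted p = 0.00571), by -0.81 within the first run and -0.78 within the second.

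Fn1 encodes fibronectin, which bridges collagens and integrins, and it passed in no comparison. Its signal without LIF was 11.55, 11.73 and 11.67 in the lacking lines and 11.63, 11.82, 12.00, 11.80 and 11.97 in the retaining lines. With LIF it was 12.38, 11.86 and 11.79 in the lacking lines and 11.68, 12.14, 12.11, 11.95 and 12.02 in the retaining lines. By run of titles, the levels with LIF were 11.95 to 12.38 in the first and 11.68 to 11.86 in the second. Without LIF they were 11.55 to 12.00 and 11.63 to 11.73. The change was -0.36 in the lacking lines (adjusted p = 0.222) and -0.14 in the retaining lines (adjusted p = 0.359), with 0 of 8 lines higher without LIF. Lox, lysyl oxidase, which cross-links collagen and elastin, changed by 0.90 ± 0.14 in the retaining lines, with an adjusted p of 0.000621 in the fit without a filter. Its signals were low, 3.81 to 3.87 in the lacking lines without LIF against 4.00 to 5.13 in the retaining lines. The difference of its responses was -0.77 and did not pass.

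**Figure D3:**
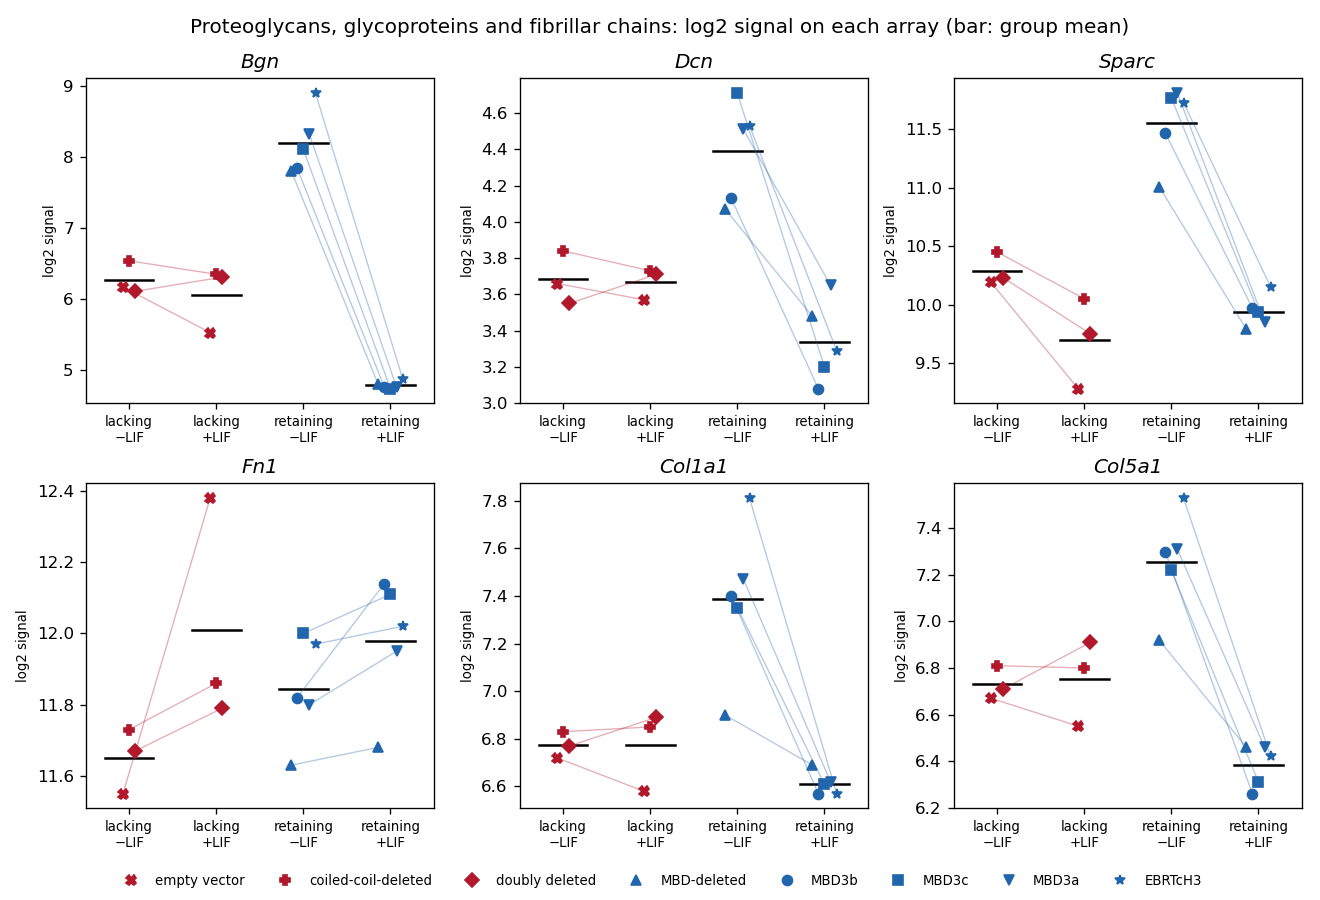
Log2 signal of 2 proteoglycans, 2 glycoproteins and 2 fibrillar collagen chains on each array, drawn as for the basement membrane chains, with the lacking lines in red and the retaining lines in blue. Axes do not start at 0 and differ between panels. Bgn lies between 5.53 and 6.54 in the lacking lines, above the retaining lines with LIF and below them without it, and Fn1 overlaps between the classes in both conditions.

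Among the other collagens few chains moved. Of 5 collagen VI chains, which form beaded filaments, Col6a1 rose (0.32, adjusted p = 0.0325), a call lost without the EBRTcH3, MBD3a, MBD3b or MBD3c line, and within the second run of titles its change was -0.08. Of 9 tested fibril-associated and related chains, Col12a1, which sits on type I fibrils, rose by 0.91 ± 0.13 in the retaining lines (adjusted p = 0.000219). Its responses differed by -0.77 (adjusted p = 0.0355), a call lost without the MBD3a, MBD3b, MBD3c, coiled-coil-deleted or doubly deleted line and with a LIF effect for each run. None of the 4 transmembrane chains, of Col26a1 and Col28a1, or of the short-chain Col8a2 passed for LIF withdrawal in either class.

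Among the retaining lines the MBD-deleted line had the smallest response for 16 of the 20 members called higher, or 80%. The same line had the smallest response for 42.5% of all 4870 genes called higher. Col18a1, Lama5, Lamb1 and Lox were the exceptions among members. The MBD-deleted line is also the only retaining line in the second run of titles, so that the construct and the run cannot be told apart here.

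Without LIF, 15 members were lower in the lacking lines than in the retaining lines, 27.8% of those tested, against 12.4% of all genes. Without Dcn and Lox they were 13 of 52, or 25%, and without a filter the difference was called for Dcn (adjusted p = 0.0112) and not for Lox (adjusted p = 0.0578). The 15 were Bgn (-1.92), Sparc (-1.27), Lamb1 (-1.19), Col4a2 (-1.02), Dcn, Lamb3 and 9 others between -0.68 and -0.24. The calls for Bgn, Sparc, Lamb1, Col4a2 and Lamb3 were kept in all 8 fits that left out a line. Without the empty vector line 8 members were called lower, without the coiled-coil-deleted line 9 and without the doubly deleted line 7. Dcn was among them each time. With the run of titles in the model 7 were called lower (those 5, Dcn and Col12a1). Col14a1 (0.30, adjusted p = 0.0119) and Col17a1 (0.27, adjusted p = 0.0209), a fibril-associated and a hemidesmosomal collagen, were higher in the lacking lines, 3.7% of tested members against 8.55% of all genes. Both calls were lost without the empty vector or the doubly deleted line, and that for Col17a1 without the coiled-coil-deleted line.

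With LIF, 5 members were higher in the lacking lines, a share of 9.26% that lies near the 7.65% of all genes, and 0 were lower (6.48% of all genes; 12 members had an unadjusted p under 0.05 in either direction). They were Bgn (1.28 ± 0.17, adjusted p = 0.000708), Col4a1 (0.87 ± 0.10, adjusted p = 0.000384), Col4a2 (0.71 ± 0.11, adjusted p = 0.00166), Col18a1 (0.55 ± 0.14, adjusted p = 0.0216) and Col5a1 (0.37 ± 0.11, adjusted p = 0.0447). The calls for Bgn, Col4a1 and Col4a2 were kept in all 8 fits that left out a line and with the run of titles in the model. Those for Col18a1 and Col5a1 were lost without MBD3a, MBD3b, the coiled-coil-deleted or the doubly deleted line, and that for Col5a1 also without EBRTcH3 or MBD3c. Bgn, Col4a1, Col4a2 and Col5a1 were thus higher in the lacking lines with LIF and lower in them without LIF. For Col4a1 the difference without LIF (-0.67, adjusted p = 0.0123) was lost without the empty vector line (adjusted p = 0.0597), and for Col5a1 (-0.53, adjusted p = 0.0131) without the empty vector or the doubly deleted line.

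**Figure D4:**
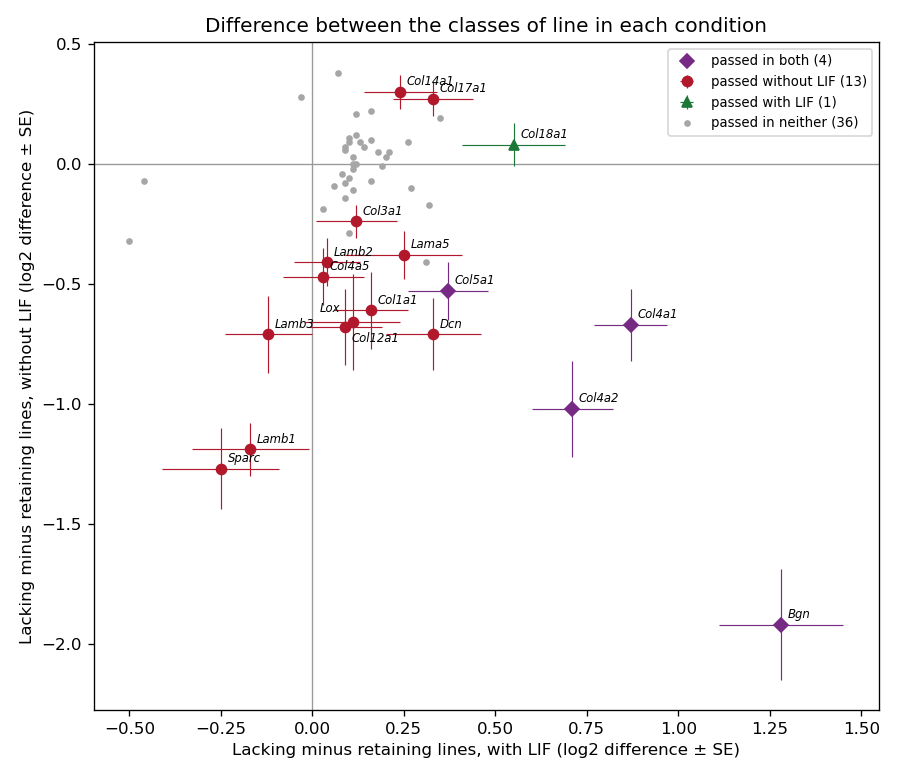
Log2 difference between the lines that lack and those that retain a coiled coil, with LIF on the horizontal axis and without LIF on the vertical axis, for the 54 tested genes, with SE bars for genes that passed. Bgn, Col4a1, Col4a2 and Col5a1 (diamonds) lie to the right and below, higher in the lacking lines with LIF and lower without it, while Lamb1 (-1.19) and Sparc (-1.27) are low without LIF only.

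The 4 MBD3a constructs form a 2 by 2 design of the domains. In an additive model, deletion of the coiled coil lowered 5 members without LIF: Bgn (-1.74 ± 0.12, adjusted p = 0.000956), Sparc (-1.07, adjusted p = 0.0107), Lamb1 (-1.02, adjusted p = 0.00513), Col4a2 (-0.87, adjusted p = 0.0316) and Dcn (-0.60, adjusted p = 0.0481 without a filter). That is 9.26% of tested members, against 6.13% of all genes, and 0 members were higher (2.95% of all genes). Without Dcn and Lox it is 4 of 52, or 7.69%. The call for Dcn was lost with a trend in the prior variance (adjusted p = 0.0652). Deletion of the methyl-CpG-binding domain changed 0 members and 0 of all genes (0% in either direction), with an unadjusted p under 0.05 for 6 members and 1644 genes. For Bgn that effect was -0.47 ± 0.12 and for Sparc -0.51 ± 0.17, each with an adjusted p of 0.686. The model leaves 2 residual degrees of freedom in all, over both conditions, which share an estimate of the spread. The interaction of the domains was not estimated, and MBD3a is in another run of titles than the 3 deletion constructs.

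Genes that make, bind or break down these matrix proteins were counted from lists written from general knowledge. These lists and the marker lists below were chosen with earlier results of these data known. Their shares are therefore descriptive and support no claim of an excess. The shares of all tested genes to set beside the list and marker counts are 1.71% higher and 1.22% lower in the lacking lines, 21.3% higher and 14.5% lower in the retaining lines, and 7.9% with a lower and 4.17% with a higher response in the lacking lines. Of 30 tested genes of collagen biosynthesis and processing, 0 passed in the lacking lines, where 5 had an unadjusted p under 0.05. In the retaining lines 14 rose (46.7%) and 4 fell (13.3%), and 8 (26.7%) had a lower response in the lacking ones. Bmp1, the proteinase that trims procollagen, rose by 2.46 ± 0.16 in the retaining lines (adjusted p = 1.14e-06), and the prolyl hydroxylase P3h2, which acts on collagen IV, rose by 1.35. Of 19 tested basement membrane partners, 2 rose in the lacking lines, and 10 rose (52.6%) and 3 fell (15.8%; Nid2, Ntn1 and Smoc1) in the retaining lines. Pxdn, the peroxidase that cross-links collagen IV, differed by 0.47 in the lacking lines (adjusted p = 0.0744) and rose by 1.97 ± 0.10 in the retaining lines (adjusted p = 1.45e-07), and the responses differed (adjusted p = 0.000247).

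Matrix receptors moved in the same comparison. Of 24 tested, 2 rose and 1 fell in the lacking lines, 15 rose (62.5%) and 1 fell in the retaining lines, and 13 (54.2%) had a lower and 2 a higher response in the lacking lines. The laminin-binding integrin subunit Itga3 rose by 2.27 ± 0.10 in the retaining lines (adjusted p = 7.15e-08), Cd44 by 1.95 and the collagen receptor Ddr1 by 1.66. Among 22 other tested matrix proteins, 5 rose in the lacking lines (22.7%) and 17 rose (77.3%) and 1 fell in the retaining lines, with a change of Thbs1 (thrombospondin) of 1.85 in the lacking lines, against 4.57 in the retaining lines. Among 20 tested genes of matrix turnover, 0 passed in the lacking lines, where 2 had an unadjusted p under 0.05. In the retaining lines 14 rose (70%) and 1 fell, and 9 (45%) had a lower response in the lacking ones. Timp2, an inhibitor of matrix metalloproteinases, rose by 2.15 in the retaining lines, and Mmp14, which cleaves pericellular collagen, by 1.22. Of 26 tested regulators of matrix genes in the TGF-beta, YAP and SRF pathways, 1 rose and 1 fell in the lacking lines and 13 rose (50%) and 2 fell (7.69%) in the retaining lines, led by the ligand Tgfb2, which changed by 0.07 in the lacking lines and by 2.64 ± 0.20 in the retaining lines (adjusted p = 2.51e-06).

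**Figure D5:**
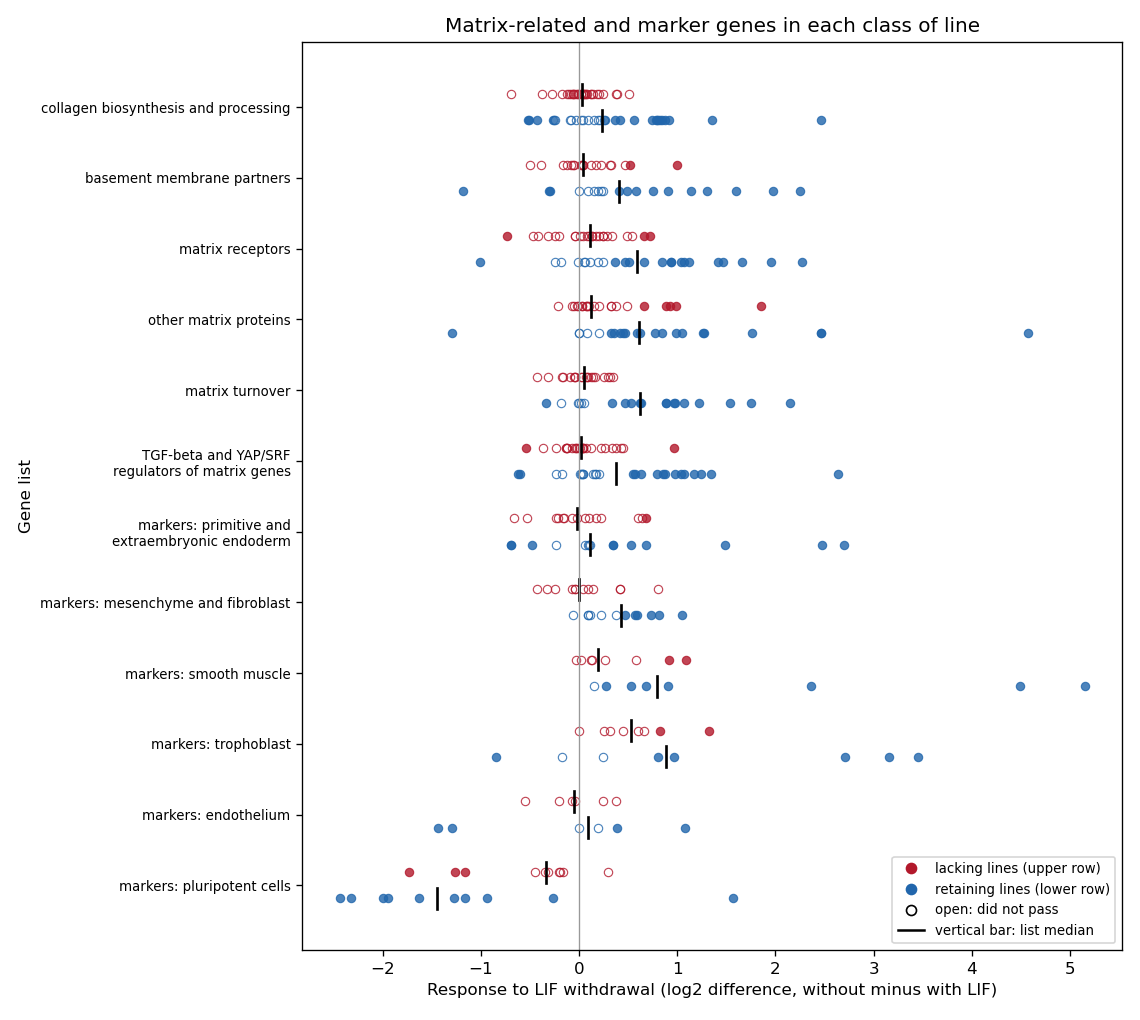
Response to LIF withdrawal (log2 difference) of the tested genes of 6 matrix-related lists and 6 lists of cell type markers, with the lacking lines (red) above the retaining lines (blue) in each list; filled points passed at an adjusted p under 0.05, open points did not, and a vertical bar marks the list median. Matrix turnover has a median of 0.05 in the lacking lines and 0.63 in the retaining lines.

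Markers of differentiated cell types moved in the same arrays. Of 15 tested markers of primitive and extraembryonic endoderm, 1 rose in the lacking lines (Pth1r), and 7 rose (46.7%) and 3 fell (20%) in the retaining lines, where Dab2 rose by 2.70. Gata6 and Foxa2 were among those that rose and Gata4 and Sox7 among those that fell, and Afp and Cubn were below the filter. Of 12 tested mesenchyme markers, 0 passed in the lacking lines, where 4 had an unadjusted p under 0.05. In the retaining lines 6 rose (50%), with Pdgfrb at 1.05 and Fap below the filter. The response was lower in the lacking lines for 3 of the 12 (25%) and higher for 0. Vim changed by 0.80 in the lacking lines (adjusted p = 0.118) and by 0.73 in the retaining lines. Its level was lower in the lacking lines in both conditions. The difference was -1.79 with LIF (adjusted p = 0.00106) and -1.72 without it (adjusted p = 0.0026). With LIF the lacking lines had 2 of the 12 higher (16.7%, against 7.65% of all genes) and 3 lower (25%, against 6.48%). Without LIF they had 1 higher (8.33%, against 8.55%) and 3 lower (25%, against 12.4%). The mean signal of all measured mesenchyme markers was 6.01 to 6.04 in the lacking lines without LIF and 6.16 to 6.63 in the retaining lines without LIF, and the endoderm markers spanned 5.90 to 5.93 and 5.89 to 6.18 in the same groups. With LIF, the endoderm markers spanned 5.69 to 6.05 in the lacking lines and 5.49 to 5.64 in the retaining lines. The mesenchyme markers spanned 5.78 to 6.10 and 5.86 to 6.04 in the same groups with LIF. Single endoderm markers went both ways. With LIF 4 of 15 were called higher in the lacking lines (26.7%, against 7.65% of all genes) and 2 lower (13.3%, against 6.48%). Without LIF 5 were called higher (33.3%, against 8.55%) and 3 lower (20%, against 12.4%). Srgn differed by 3.16 with LIF and 3.19 without it, Gata4 by -1.05 and -0.78, and Fst by -0.50 and -2.14.

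Of the 8 smooth muscle markers, 2 rose in the lacking lines, Tagln (1.09, adjusted p = 0.00723) and Acta2 (0.92, adjusted p = 0.0442). In the retaining lines 7 rose (87.5%), among them Tagln (5.15) and Acta2 (4.49). The mean signal of the 8 without LIF was 5.82 to 6.12 in the lacking lines and 7.13 to 7.42 in the retaining lines. Of 8 tested trophoblast markers 2 rose in the lacking lines (Elf5 and Plet1), and 5 rose (62.5%) and 1 fell (12.5%) in the retaining lines, with Hand1 at 3.45, Krt7 at 3.16 and Prl2c2 and Tpbpa below the filter. Elf5 changed by 1.32 in the lacking lines (adjusted p = 0.000395) and by 0.24 in the retaining lines (adjusted p = 0.0645). The response of the lacking lines was the higher one for Elf5 (1.07) and Tfap2c (1.10), and the lower one for 3 of the 8. Of 6 tested endothelial markers 0 passed in the lacking lines, where 1 had an unadjusted p under 0.05. In the retaining lines 2 rose and 2 fell (33.3% each), and Emcn was below the filter. Of 10 pluripotency markers 3 fell in the lacking lines, and 9 fell and 1 rose (Dppa3) in the retaining lines. The part of these cell types in the change of the matrix genes was not tested.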

How the data were processed

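Total RNA of 16 cultures was labelled with a whole-transcript kit and hybridised to 16 Affymetrix arrays. The deposited values are on the log2 scale, and the authors obtained them by RMA (affy), per the submitters' processing notes, which give no versions. Of 65770 probe sets, 27 had no value. Those with a single symbol (30439) were kept, symbols were updated through Entrez identifiers to a RefSeq table of GRCm38.p6 (22653 matched, 827 updated), and the probe set with the highest mean represented each of 30102 genes. Genes above the 40th percentile of the array (4.24 to 4.38) on at least 3 arrays were tested (22872). Signal over background, and not depth, sets what can be measured.

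The response to LIF withdrawal was fitted with limma 3.58.1 in R 4.3.3 over all 16 arrays, with the line as a block and a response for each class of line, so a class's estimate shares its spread with the other. The pairing by line comes from the labels. Deviations of the 2 arrays of a line from their group means correlated by -0.05 to 0.28. The highest correlation with another line of the class was -0.05 to 0.24, a similar range, so the values show little of the pairing. Class differences were fitted on the 8 arrays of a condition without a block, and the 4 MBD3a constructs in an additive model of both domains. P-values were adjusted (Benjamini-Hochberg) over all tested genes, with a threshold of 0.05. Errors are SE.

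The members and lists were chosen with earlier results of these data known. Of members, the rule names up to 6 for each role by the size of the retaining-line response among those that passed, and every collagen IV and laminin chain; of each list, up to 4 genes that passed. Nid2, Ntn1, Smoc1, Gata4, Gata6, Foxa2, Sox7, Pth1r, Elf5, Plet1, Tfap2c and Dppa3 were named after their values were seen. The models were tested on simulated data. Alternatives were the block, filter, probe set choice, normalization, array weights, trend, run of titles and each line left out.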

Additional observations from a re-analysis of the deposited data

Results flagged for a closer look

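For 12 genes, lines that lack a coiled coil and lines that retain it responded differently to LIF withdrawal in the test of the difference itself (limma, adjusted p under 0.05). The differences, lacking minus retaining lines on the log2 scale, were -3.20 for Bgn, -1.73 for Col4a2, -1.54 for Col4a1, -1.04 for Dcn, -1.02 for Lamb1 and -1.02 for Sparc. They were -0.90 for Col5a1, -0.77 for Col12a1, -0.77 for Col1a1, -0.63 for Lama5, -0.49 for Lama3 and -0.45 for Lamb2. Dcn had passed the filter on signal only through arrays of the retaining lines without LIF.

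In 6 of 162 sets of 5 retaining lines, 1 line stood apart from the other 4 by Dixon's test. That is no more than the about 1 in 20 that chance gives. Each time it was the MBD-deleted line, which is also the only retaining line in the second run of titles. Its response to LIF withdrawal was 0.14 for Col4a5 (others 0.60 to 0.75), -0.02 for Lamc1 (others -0.86 to -0.68), 0.26 for Col20a1 (others -0.40 to -0.22) and -0.31 for Col22a1 (others 0.03 to 0.11). Its signal with LIF was 9.65 for Lamc1 (others 10.61 to 10.76) and 6.80 for Col11a2 (others 6.62 to 6.67).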

How the results depend on the processing

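The 20 members called higher in the retaining lines were 16 to 20 with a line left out, and the 2 called lower were 2 to 3. Within the second run of titles, which has 1 retaining and 2 lacking lines, both counts were 0, and the changes of Col6a1 (-0.08) and Lama4 (-0.09) reversed. In the lacking lines, the 1 member called higher became 0 without the replicate block, without a filter and within either run, and 2 with a filter at the 60th percentile, array weights or a trend in the prior variance (0 to 2 with a line left out). The 1 called lower became 2 with a LIF effect for each run and 0 within the second run (0 to 1 with a line left out); within the first run 1 was called lower, and Lama1 was not (adjusted p = 0.0552). Of the other calls in the retaining lines and of the difference, leaving out the replicate block ended only that for Col2a1 (adjusted p = 0.0665).

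The 12 lower responses in the lacking lines became 8 with a LIF effect for each run (calls lost for Col1a1, Col12a1, Lama3 and Lamb2), 10 without a filter (lost for Lama3 and Lamb2), 4 within the first run, where the empty vector is the only lacking line and is assumed to vary like the others, and 0 within the second (7 to 17 with a line left out). Without LIF, the 2 members higher in the lacking lines became 4 with quantile normalization or array weights and 0 within either run (0 to 2 with a line left out). The 15 lower ones became 7 with the run as a covariate and 0 within the second run (7 to 18 with a line left out). With LIF, the 5 higher ones became 9 with array weights or the line as a random replicate block, 3 with the run as a covariate, 2 within the first run and 0 within the second (3 to 8 with a line left out). The 0 lower ones became 2 with array weights and 1 with the random replicate block (0 to 2 with a line left out). For deletion of the coiled coil, the 0 higher ones became 1 with a filter at the 60th percentile, quantile normalization or a trend, and of the 5 lower ones 4 were kept with a trend (lost for Dcn); the 60th percentile filter left 4 of those 5 to test. The cause was not tested; fits within the second run have 1 residual degree of freedom. Calls kept with every line left out in turn were 18 of 22 in the retaining lines, 7 of 12 for the difference, 6 of 17 without LIF, 3 of 5 with LIF and 0 of 2 in the lacking lines. The kept calls include Dcn in the retaining lines, for the difference and without LIF, and Lox in the retaining lines. Both genes also enter the counts with a line left out. Dcn is among the 8 lower responses with a LIF effect for each run and the 7 lower members with the run as a covariate. These calls support nothing, since both genes passed the filter only through the group in which they were highest. The construct comparisons could not be fitted with a line left out, with the run as a covariate or within a run. Near-background probe sets (Dcn, Lox, Col4a3) carry little information on change.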
